A study of Mus musculus with 8 samples.

Results

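The S100 proteins and annexins described here were 10 genes of the BAT transcriptome, S100a4, S100a6, S100a10, S100a11, S100b, Anxa1, Anxa2, Anxa3, Anxa4 and Anxa5, taken by name from the 31053 genes of the count table. Bulk RNA-seq was performed on brown adipose tissue (BAT) of 4 WT and 4 ATGLKO mice, which the study also calls Ucp1Δ/Δ mice. All were male C57BL6/J mice that the labels give as 10 weeks old, whereas a legend of the study gives a younger age. In Ucp1Δ/Δ mice, Pnpla2, the gene for adipose triglyceride lipase (ATGL), is floxed and removed by a Cre recombinase under the Ucp1 promoter, so the deletion is made in adipocytes that use Ucp1 and not in the immune, vascular or connective tissue cells around them. Whether the WT mice carried the floxed allele or the Cre alone is not given in the sources used here. Their stated source is BAT, although the cell type field of the labels reads stromal vascular fraction, which is BAT freed of its adipocytes.

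S100 proteins are small calcium sensors that carry a pair of EF-hands, the loops that hold calcium, and work mostly as dimers that open on binding calcium and grip a partner protein. Annexins are a separate family that attach to the inner face of membranes rich in acidic phospholipids when calcium rises. The families meet in fixed pairs, since S100A10 joins annexin A2 in a heterotetramer at the cell membrane and S100A11 binds the tail of annexin A1. S100A4 and S100A6 are abundant in motile cells, fibroblasts and macrophages. S100B is best known from glia, and brown adipocytes also make and secrete it, where it has been tied to sympathetic innervation of the tissue.

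Libraries of WT mice held 2017697 to 3115956 counts, and those of Ucp1Δ/Δ mice 2240612 to 2941799. At these depths, 3 counts corresponded to 0.933 to 1.53 CPM, a floor that covers counting error only. CPM, the unit of all levels given here, is the count scaled to a common library size after TMM, a scaling that centres most genes on no change. Pnpla2 stood at 2913 ± 191 CPM in WT mice and 474 ± 59.2 CPM in Ucp1Δ/Δ mice (mean ± SD, n = 4 each), 16.3% of the WT level, with a log2FC of -2.62 ± 0.17 (SE, edgeR pAdj = 1.97e-07). The 10 brown adipocyte markers summed to between 14049 and 24785 CPM in the WT group and to 11010 to 16443 CPM in the Ucp1Δ/Δ group, so adipocyte RNA was present in every library despite the label of a stromal fraction. Skeletal muscle markers ranged from 15.0 to 1177 CPM within WT mice and from 46.8 to 1552 CPM within Ucp1Δ/Δ mice, and none of the 6 passed the test.

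All 10 S100 and annexin genes passed the filter on low counts. Of these, 8 were higher in Ucp1Δ/Δ BAT and 0 were lower. A gene counted as called when its p from the quasi-likelihood test of edgeR on genotype, adjusted by Benjamini-Hochberg over the 8930 genes tested (pAdj), was under 0.05. S100a10 and Anxa4 did not pass. Over all genes tested, 21.0% passed in either direction, 13.3% as higher and 7.63% as lower. The median log2FC of the 10 genes was 1.21, against -0.01 over all genes tested. In 8 of the 10 genes, every Ucp1Δ/Δ mouse lay above every WT mouse in CPM, a pattern that 14.4% of all genes tested showed. S100a10 and Anxa5 were the exceptions.

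**Figure D1:**
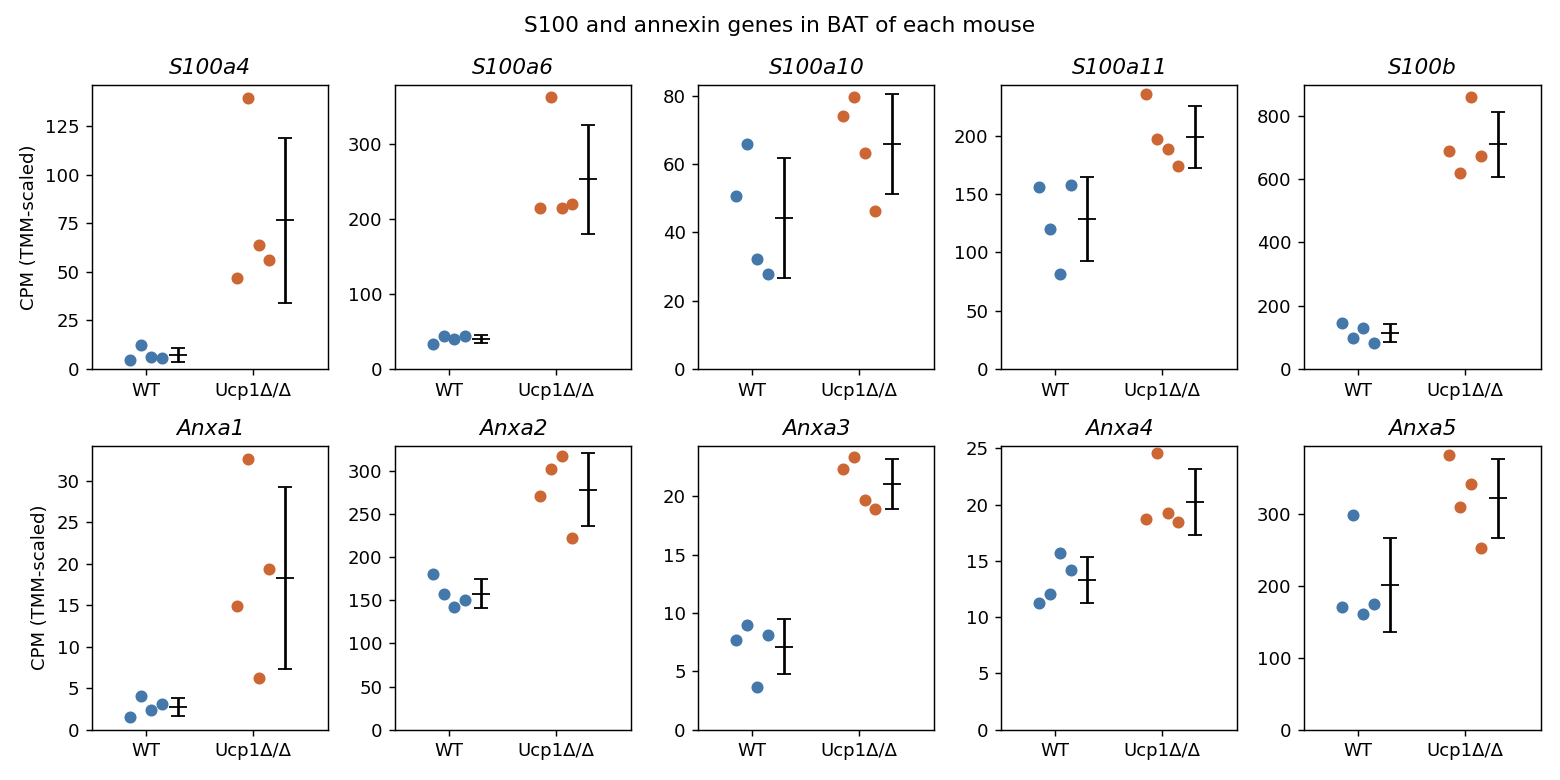
CPM (y axis, linear from 0, TMM-scaled) of the 10 genes in each mouse, with WT mice in blue and Ucp1Δ/Δ mice in orange and, beside each group, the mean with its SD (n = 4). S100a6, S100b and S100a4 stand well clear of the WT mice, whereas S100a10 and Anxa5 share part of their range between genotypes.

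Promoters of the genes with the largest differences are given first, because these genes, on chromosomes 3, 10 and 19, were all called higher. RefSeq promoters on GRCm38.p6, the 250 bases before the transcription start in RefSeq, were matched for 8 of the 10 genes and not for S100a10 and Anxa3. Distances to the start hold for RefSeq, and the gene spans given below are those of GENCODE, whose starts can differ. The Anxa1 window lies inside its GENCODE span, and those of S100a6, S100a11, Anxa2 and Anxa5 run past their GENCODE starts. Capitals mark 1 of 4 short motifs found on either strand, and sequences run 5′ to 3′ in the direction of the gene.
S100a4, chr3:90603520-90603769, + strand: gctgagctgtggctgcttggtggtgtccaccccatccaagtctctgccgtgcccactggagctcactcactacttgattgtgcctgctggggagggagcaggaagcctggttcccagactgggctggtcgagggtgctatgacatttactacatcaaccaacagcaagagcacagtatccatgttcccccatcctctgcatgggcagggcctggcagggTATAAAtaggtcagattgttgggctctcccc
S100a6, chr3:90612644-90612893, + strand: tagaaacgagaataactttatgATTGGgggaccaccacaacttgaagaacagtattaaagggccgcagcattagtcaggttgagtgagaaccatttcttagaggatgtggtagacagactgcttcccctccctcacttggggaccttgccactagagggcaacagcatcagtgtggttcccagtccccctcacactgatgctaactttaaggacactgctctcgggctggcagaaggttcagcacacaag
S100b, chr10:76253586-76253835, + strand: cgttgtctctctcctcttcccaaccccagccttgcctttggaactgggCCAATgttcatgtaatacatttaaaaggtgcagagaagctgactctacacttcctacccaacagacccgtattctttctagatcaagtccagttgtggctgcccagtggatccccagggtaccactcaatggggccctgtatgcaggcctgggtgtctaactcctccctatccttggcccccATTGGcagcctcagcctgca
Anxa1, chr19:20390672-20390921, - strand: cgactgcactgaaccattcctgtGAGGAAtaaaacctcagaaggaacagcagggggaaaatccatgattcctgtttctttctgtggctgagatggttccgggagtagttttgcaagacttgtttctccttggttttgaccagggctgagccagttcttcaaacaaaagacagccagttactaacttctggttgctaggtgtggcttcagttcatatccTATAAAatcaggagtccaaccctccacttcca
The motifs searched were the TATA box (TATAAA), the CCAAT box (CCAAT), the AP-1 site (TGANTCA) and the core of the PU.1 site (GAGGAA), the last bound by a myeloid transcription factor. None of the 4 contains another. S100a4 and Anxa1 each held a TATA box, 31 and 32 bases before the start, and Anxa2 held one 17 bases before it. A TATA box was found in 12.4% of the 32851 promoter windows of the mouse table. S100a6 held a CCAAT box in reverse 228 bases before the start, and S100b held CCAAT boxes at 202 and, in reverse, 20 bases before it, whereas 33.8% of all windows held the motif. A PU.1 core was found in Anxa1 at 227 bases and in S100a11 at 153 bases before the start, and in 23.3% of all windows. The AP-1 letters, present in 6.75% of all windows, were found in S100a11 at 136 and 38 bases and in Anxa2 at 95 bases before the start. No motif was found in all 4 promoters shown. None of the 4 was found in the windows of Anxa4 and Anxa5.

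S100a4 encodes a calcium sensor that binds nonmuscle myosin and is often used as a marker of fibroblasts and of some macrophages. It was read with 9, 28, 18 and 11 counts in WT mice 1 to 4 and with 132, 448, 153 and 131 counts in Ucp1Δ/Δ mice 1 to 4. In CPM these values were 4.59, 12.5, 6.01 and 5.57 in WT mice and 46.7, 139, 63.9 and 56.2 in Ucp1Δ/Δ mice. Ucp1Δ/Δ mouse 2 was the highest of all and WT mouse 2 the highest of its group, and the genotypes did not overlap. The log2FC was 3.41 ± 0.38 (SE, pAdj = 1.35e-05), rank 73 of the 8930 genes tested, and it was 2.95 without Ucp1Δ/Δ mouse 2. The gene lies at chr3:90603771-90606045 (mm10), and 302 of its 584 exonic bases (51.7%) are shared on the same strand with Gm42674, a gene model that the table lists with 0 counts in every mouse.

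S100a6, or calcyclin, encodes a sensor induced in proliferating cells, and lies downstream of S100a4 at chr3:90612882-90624181. It measured 33.1, 43.5, 39.7 and 43.6 CPM in WT mice and 214, 363, 214 and 221 CPM in Ucp1Δ/Δ mice. The WT mice lay close together, and Ucp1Δ/Δ mouse 2 stood apart above the other Ucp1Δ/Δ mice. The means were 40.0 ± 4.89 and 253 ± 73.1 CPM, with a log2FC of 2.66 ± 0.21 (pAdj = 7.08e-07), or 2.44 without Ucp1Δ/Δ mouse 2. The S100a4 to S100a6 log2 ratio within a library, which no library scaling alters beyond the pseudocount, was -2.41 ± 0.47 in WT mice and -1.81 ± 0.34 in Ucp1Δ/Δ mice. The difference of 0.60 lay within overlapping groups (two-sided exact permutation test, n = 4 each, p = 0.114, adjusted over 3 ratios p = 0.171). With 4 mice a group, the smallest p this test can give is 0.0286.

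S100b lies apart from the other S100 genes, at chr10:76253853-76261159. It measured 144, 96.8, 130 and 81.1 CPM in WT mice and 689, 620, 860 and 673 CPM in Ucp1Δ/Δ mice. Every Ucp1Δ/Δ mouse stood far above every WT mouse, and no mouse stood apart from its group. The means were 113 ± 29.2 and 710 ± 104 CPM, with a log2FC of 2.65 ± 0.21 (pAdj = 6.47e-07). Of the 8 Schwann cell and nerve markers, which would mark the other cells known for S100b, 2 had the counts to be tested and neither passed. The myelin gene Mbp had a log2FC of -0.11 ± 0.21. The sum of these markers was 28.0 to 49.7 CPM in WT mice and 29.7 to 55.7 CPM in Ucp1Δ/Δ mice. Sox10, the transcription factor that defines Schwann cells, had 0 to 8 counts in WT mice and 1 to 12 in Ucp1Δ/Δ mice. Clstn3, at the locus whose adipocyte product Clstn3b has been linked to S100B secretion, was lower in Ucp1Δ/Δ mice (log2FC of -1.32 ± 0.45, pAdj = 0.0491). Its CPM of 30.6, 138, 108 and 18.7 in WT mice and 34.0, 22.1, 33.8 and 30.0 in Ucp1Δ/Δ mice shows that WT mice 2 and 3 alone lay above the Ucp1Δ/Δ mice, and gene-level counts do not separate Clstn3b from Clstn3. The call was lost without WT mouse 2 (log2FC -0.86) or 3 (-1.08) and without Ucp1Δ/Δ mouse 1 (-1.37), 2 (-1.17), 3 (-1.36) or 4 (-1.31). It was also lost with the replicate number as a block (-0.97, pAdj = 0.140), by DESeq2 (-1.34), voom weights (-0.87) and limma trend (-0.90), when scaled by total counts only (-1.17), and when 10 counts were asked of each library (-1.24), with pAdj from 0.0585 to 0.211 over these 6 settings.

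S100a10 and Anxa2 encode the subunits of the heterotetramer that holds plasminogen at the cell surface and organises the cortical cytoskeleton. S100a10 (chr3:93555080-93564643) measured 50.5, 65.9, 32.1 and 27.9 CPM in WT mice and 73.9, 79.7, 63.1 and 46.4 CPM in Ucp1Δ/Δ mice. Ucp1Δ/Δ mice 3 and 4 lay below WT mouse 2. The log2FC of 0.58 ± 0.25 did not pass (pAdj = 0.121), with a 95% interval of 0.04 to 1.12. Without WT mouse 2 it was 0.84 and passed (pAdj = 0.0163).

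Anxa2 (chr9:69453620-69491795) measured 181, 158, 142 and 150 CPM in WT mice and 271, 302, 318 and 222 CPM in Ucp1Δ/Δ mice. All Ucp1Δ/Δ mice were above all WT mice, and the means of 158 ± 16.8 and 278 ± 42.1 CPM gave a log2FC of 0.82 ± 0.17 (pAdj = 0.00243). An antisense gene model, Gm16144, shares 98 of its exonic bases (2.63%), and the counting strand is not given. The S100a10 to Anxa2 log2 ratio was -1.89 ± 0.49 in WT mice and -2.08 ± 0.23 in Ucp1Δ/Δ mice, a difference of -0.19 with overlapping groups (exact permutation p = 0.543, adjusted p = 0.543), which was 0.028 without WT mouse 2. Ahnak, a giant scaffold protein that the heterotetramer anchors at the membrane, rose from 151 ± 22.7 to 606 ± 71.0 CPM (log2FC of 2.01 ± 0.17, pAdj = 1.41e-06). Plgrkt, a membrane receptor for plasminogen, was lower with a log2FC of -0.85 ± 0.25 (pAdj = 0.0229), a call lost without WT mouse 4 (-0.69) or Ucp1Δ/Δ mouse 1 (-0.71) or 4 (-0.82), or when scaled by total counts only (-0.70, pAdj = 0.0598). The plasminogen activator genes Plat and Plau and the receptor gene Plaur were below the filter. Plau had 4, 1, 1 and 2 counts in WT mice and 12, 16, 7 and 6 in Ucp1Δ/Δ mice, and Plaur had 0 in each WT mouse and 7, 13, 3 and 1 in Ucp1Δ/Δ mice. Plat had at most 4 counts in any mouse, and Plg, which encodes plasminogen, had 0 counts in every mouse.

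Annexin A1 is a phospholipid-binding protein induced by glucocorticoids that acts on formyl peptide receptors and restrains neutrophil entry. Anxa1 (chr19:20373428-20390944) was read with 3, 9, 7 and 6 counts in WT mice and 42, 105, 15 and 45 counts in Ucp1Δ/Δ mice, or 1.53, 4.03, 2.34 and 3.04 CPM against 14.9, 32.7, 6.27 and 19.3 CPM. The genotypes did not overlap, although Ucp1Δ/Δ mouse 3 came near the WT mice and mouse 2 lay far above them. The log2FC was 2.74 ± 0.47 (pAdj = 0.00055), with a 95% interval of 1.75 to 3.73, the widest of the 10 genes. Without Ucp1Δ/Δ mouse 2 it was 2.29. Of its receptors, Fpr1 had 0 counts in every mouse and Fpr2 at most 4.

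S100a11 (chr3:93520488-93526287), whose product binds annexin A1 and takes part in membrane repair, measured 156, 120, 81.1 and 158 CPM in WT mice and 236, 197, 188 and 174 CPM in Ucp1Δ/Δ mice. The lowest Ucp1Δ/Δ mouse was just above the highest WT mouse. The log2FC was 0.63 ± 0.21 (pAdj = 0.0418). This call was lost without WT mouse 2 (log2FC 0.59) or 3 (0.45) and without Ucp1Δ/Δ mouse 1 (0.54), 2 (0.64), 3 (0.67) or 4 (0.69), with adjusted p between 0.0568 and 0.140. The S100a11 to Anxa1 log2 ratio was 5.11 ± 0.65 in WT mice and 3.57 ± 0.94 in Ucp1Δ/Δ mice. Ucp1Δ/Δ mouse 3, at 4.70, lay within the WT range, and the difference of -1.55 did not pass (exact permutation p = 0.0857, adjusted p = 0.171).

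**Figure D2:**
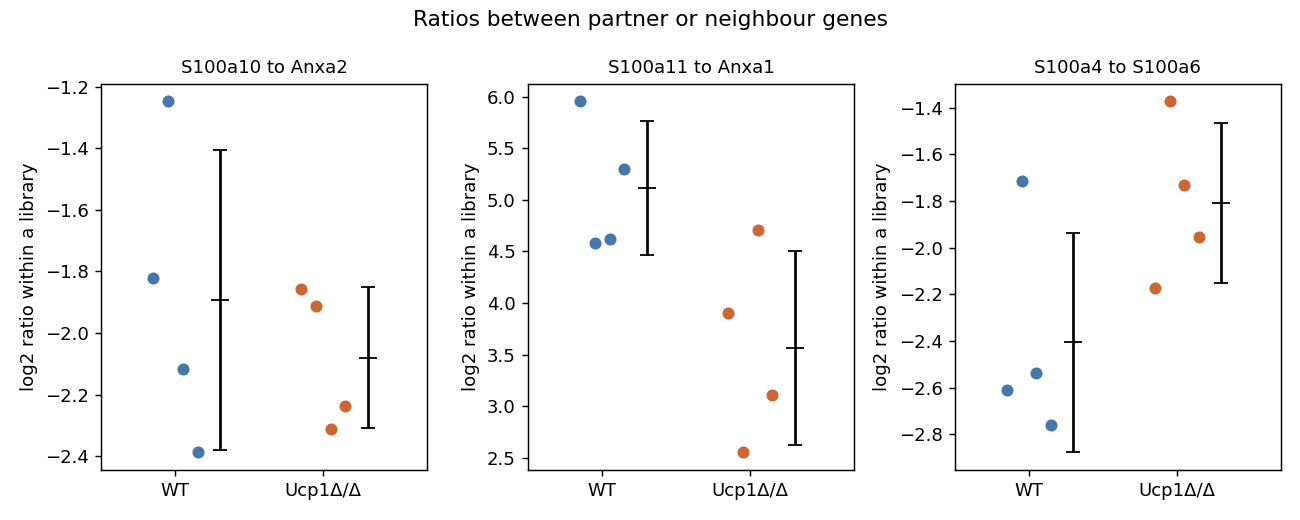
Log2 ratio of 2 genes within each library (y axis, log2 of CPM plus 1, each panel on its own scale that does not start at 0), for WT mice in blue and Ucp1Δ/Δ mice in orange, with mean and SD (n = 4). The genotypes overlap in all 3 ratios, and the widest gap between means, -1.55, is that of S100a11 to Anxa1.

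Annexin A3 is a phospholipid-binding protein best known from neutrophil granules and endothelium. Anxa3 (chr5:96793339-96845966) measured 7.65, 8.96, 3.67 and 8.11 CPM in WT mice and 22.3, 23.3, 19.6 and 18.9 CPM in Ucp1Δ/Δ mice. The Ucp1Δ/Δ mice lay close together and all above the WT mice, of which mouse 3 was lowest, and the log2FC was 1.60 ± 0.26 (pAdj = 0.000419). Neutrophil markers summed to at most 11.2 CPM in any mouse, and Ly6g had 0 counts in all mice. None of the 7 endothelial markers passed, although their median log2FC was 0.38. Pecam1 (log2FC 0.52, pAdj = 0.0647) and Cdh5 (0.43, pAdj = 0.110) were higher in every Ucp1Δ/Δ mouse than in any WT mouse, and Emcn alone had a negative log2FC (-0.41). The part of these cell types in the difference of Anxa3 was not tested.

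Annexin A4 is found mainly in epithelia and in membranes of secretory cells. Anxa4 (chr6:86736840-86793584) measured 11.2, 12.1, 15.7 and 14.2 CPM in WT mice and 18.8, 24.6, 19.2 and 18.5 CPM in Ucp1Δ/Δ mice. The genotypes did not overlap, yet the log2FC of 0.60 ± 0.21 did not pass (pAdj = 0.0541), with a 95% interval of 0.15 to 1.05. Leaving out any single mouse did not bring it past the threshold. Gm44036, on the opposite strand, shares 75 of its exonic bases.

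Annexin A5 binds phosphatidylserine, the lipid exposed by dying cells. Anxa5 (chr3:36448923-36475894) measured 170, 300, 161 and 175 CPM in WT mice and 384, 310, 343 and 253 CPM in Ucp1Δ/Δ mice. WT mouse 2 stood apart from the other WT mice and above Ucp1Δ/Δ mouse 4, so the genotypes overlapped. The log2FC was 0.68 ± 0.21 (pAdj = 0.0343), and without WT mouse 2 it was 0.92 (pAdj = 0.00132). The call was lost without WT mouse 1 (log2FC 0.60), 3 (0.57) or 4 (0.61) and without Ucp1Δ/Δ mouse 1 (0.59), 2 (0.71) or 3 (0.66), with adjusted p between 0.0550 and 0.120.

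Among the 11 other S100 genes listed, 3 had the counts to be tested and 1 was higher. S100a13, which takes part in the release of proteins that lack a signal peptide, measured 168, 187, 208 and 99.8 CPM in WT mice and 329, 312, 311 and 257 CPM in Ucp1Δ/Δ mice (log2FC of 0.86 ± 0.21, pAdj = 0.0073), with no overlap. S100a1, a sensor of muscle and other excitable cells, measured 632 ± 122 and 682 ± 107 CPM (log2FC of 0.11 ± 0.19, pAdj = 0.737, 95% interval -0.29 to 0.50). S100a16 measured 27.0 ± 10.6 and 25.3 ± 5.73 CPM (log2FC of -0.09 ± 0.26, pAdj = 0.841, 95% interval -0.64 to 0.45). S100a3, S100a5 and S100z had 0 counts in every mouse, and S100a7a and S100a14 had 3 and 1 counts in all. S100a2, also in the count table but in no list, had 0 counts in every mouse. The neutrophil genes S100a8 and S100a9, the subunits of calprotectin, were read with 39 and 24 counts over the 8 mice, below the filter. S100g, a vitamin D-dependent calcium buffer, had 0 counts in WT mice and 0, 5, 6 and 3 in Ucp1Δ/Δ mice, near the floor of 3 counts.

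The positions of these genes set the differences side by side. Chromosome 3 holds 13 of the S100 genes listed, with 11 of them within 184.7 kb from S100a1 to S100a9 and the neighbours S100a11 and S100a10 within 44.16 kb, 2828 kb further on. In order along the first group, the log2FC was 0.11 for S100a1, 0.86 for S100a13, -0.09 for S100a16, 3.41 for S100a4 and 2.66 for S100a6, and the 6 other genes were below the filter. S100a5, between S100a4 and S100a6, and S100a3, just before S100a4, were at 0 counts in all mice. S100a1 and S100a13 are transcribed away from each other, and only 42 bases separate their starts in GENCODE.
S100a1 to S100a13, chr3:90514393-90514434, + strand: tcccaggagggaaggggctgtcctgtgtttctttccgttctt
RefSeq places the start of S100a1 further from that of S100a13, and which starts were used in these mice was not tested. Of this pair, S100a13 was called higher and S100a1 was not. A difference between their log2FC was not tested.

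**Figure D3:**
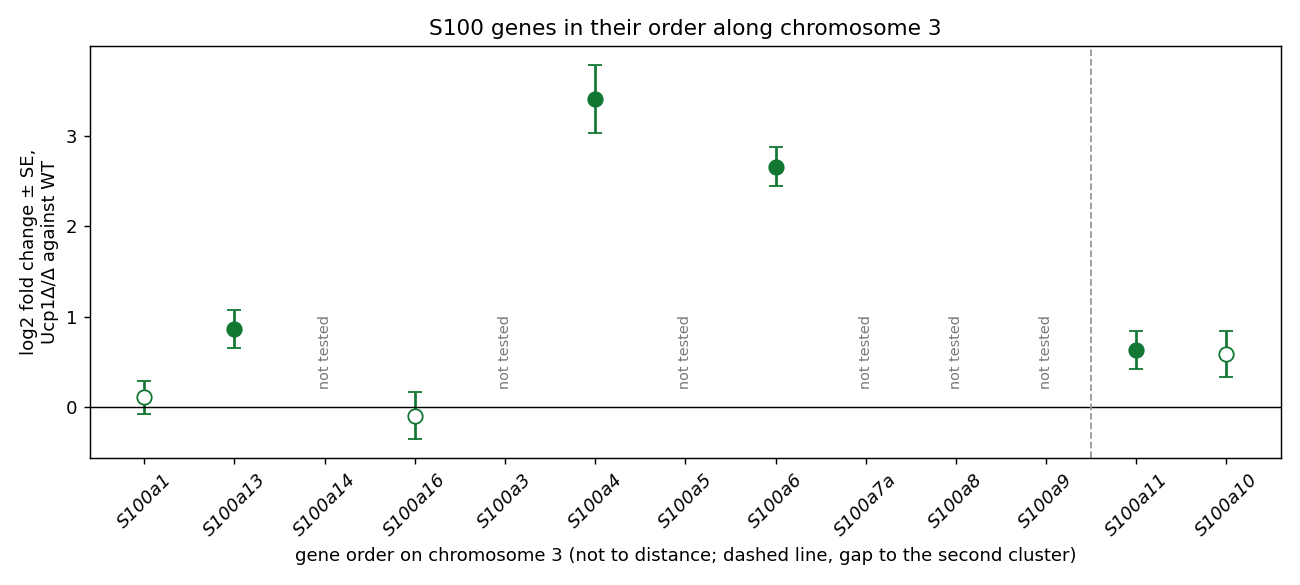
Log2FC of Ucp1Δ/Δ against WT mice with its SE (y axis) for the 13 S100 genes in their order along chromosome 3 (x axis, not to distance, with a dashed line at the gap between the groups). Filled points have an adjusted p under 0.05, and S100a4 and S100a6 stand highest with an untested gene between them.

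Of the 6 other annexins in the table, Anxa6 and Anxa7 had the counts to be tested. Anxa6, an annexin with a doubled core that binds late endosomes and cholesterol-rich membranes, rose from 341 ± 11.5 to 591 ± 86.9 CPM (log2FC of 0.79 ± 0.16, pAdj = 0.00211), with no overlap. Anxa7 measured 22.4 ± 5.92 and 20.5 ± 2.37 CPM (log2FC of -0.12 ± 0.22, pAdj = 0.766, 95% interval -0.59 to 0.36). Anxa8 was below the filter with 0, 1, 1 and 1 counts in WT mice and 10, 8, 6 and 6 in Ucp1Δ/Δ mice. Anxa9 had 24 counts in all, Anxa10 and Anxa11 had 0 in every mouse, and Anxa13 was not found by its symbol in the count table. An antisense gene model, Anxa11os, shares 113 exonic bases of Anxa11 (2.73%), and the counting strand is not given. Whether the 0 counts of Anxa11 reflect its expression or the counting was not tested. In the order of log2FC over both families, the 95% intervals of S100a4, Anxa1, S100a6 and S100b overlapped each other, as did those of S100a13, Anxa2, Anxa6, Anxa5, S100a11, Anxa4 and S100a10. Between these groups, the interval of Anxa3, 1.04 to 2.16, overlapped that of Anxa1 and those of all genes in the lower group.

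**Figure D4:**
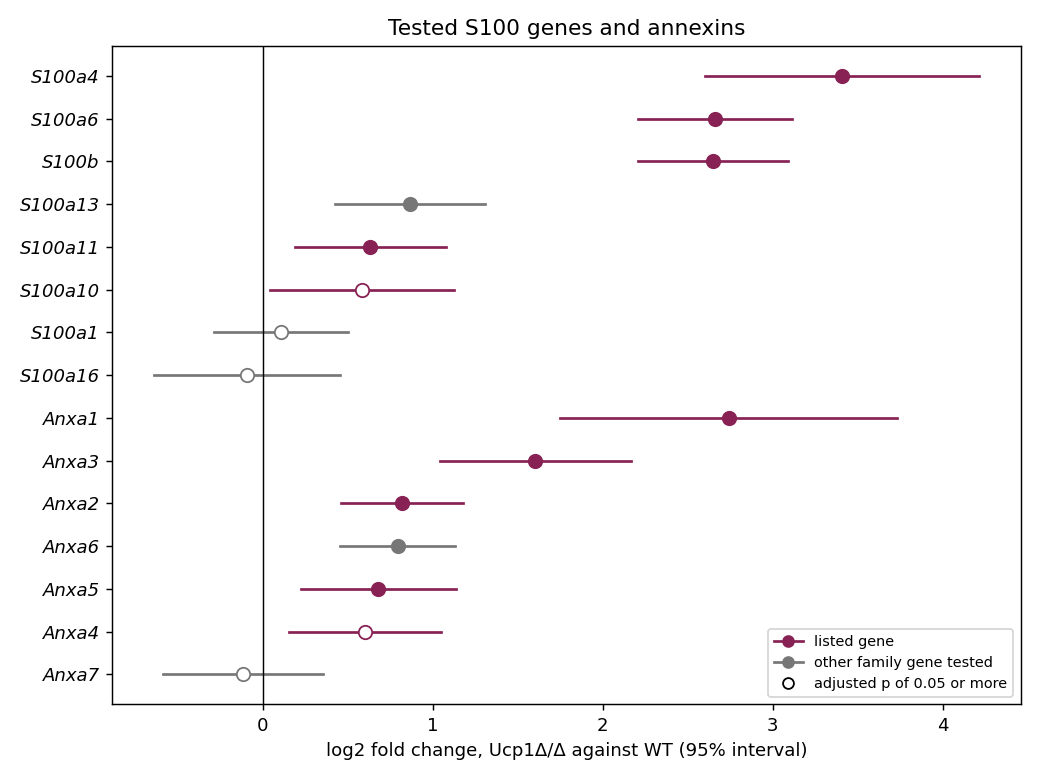
Log2FC of Ucp1Δ/Δ against WT mice with its 95% interval (x axis) for the 15 tested S100 genes and annexins (y axis), with the 10 listed genes in purple, the other 5 in grey and open points for an adjusted p of 0.05 or more. S100a4, S100a6, S100b and Anxa1 have the highest values, although the interval of Anxa3 overlaps that of Anxa1. The intervals of S100a1, S100a16 and Anxa7 include 0.

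Of 21 genes for proteins that these families bind or act through, 12 were tested, and 4 were higher and 4 lower, with a median log2FC of -0.01. The shares over all genes tested were 13.3% higher and 7.63% lower. Besides Ahnak, the higher genes were Myof, Myh9 and Dlc1. Myof, which encodes the membrane-repair protein myoferlin, rose from 3.75 ± 1.39 to 21.6 ± 11.02 CPM (log2FC of 2.57 ± 0.39, pAdj = 0.000198). Myh9, the nonmuscle myosin chain bound by S100A4, had a log2FC of 0.85 ± 0.16 (pAdj = 0.00122). Dlc1, which encodes a binding partner of S100A10, had a log2FC of 0.89 ± 0.16 (pAdj = 0.00109). On the lower side, Cacybp, which encodes the calcyclin-binding protein of S100A6, fell from 65.7 ± 12.2 to 36.5 ± 2.55 CPM (log2FC of -0.84 ± 0.18, pAdj = 0.00301), opposite in direction to S100a6. Kcnk3, a potassium channel carried to the membrane by S100A10, had a log2FC of -0.61 ± 0.20 (pAdj = 0.0386), a call lost without WT mouse 1 (-0.55) or 3 (-0.56) or Ucp1Δ/Δ mouse 1 (-0.59) or 2 (-0.46), when scaled by total counts only (-0.48) or when 10 counts were asked of each library (-0.55). The dysferlin gene Dysf (0.63), the annexin A11 and A7 partners Pdcd6 (-0.41) and Pef1 (-0.04), and Sugt1 (0.02) did not pass. Ager, the receptor for several secreted S100 proteins, had at most 9 counts in any mouse, and Tlr4 at most 18.

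EF-hand proteins outside the S100 family gave 3 calls. Of 17 listed genes, 16 were tested, 3 were higher and 0 lower, and their median log2FC was 0.32. Over all genes tested, 21.0% passed in either direction and 13.3% as higher, with a median log2FC of -0.01. The count of 3 was thus near the general share. Efhd2, an actin-binding EF-hand protein of immune cells, rose from 4.43 ± 1.31 to 21.7 ± 2.0 CPM (log2FC of 2.27 ± 0.25, pAdj = 1.42e-05). Rcn3, a chaperone of the secretory pathway involved in collagen production, had a log2FC of 2.59 ± 0.42 (pAdj = 0.000352). Capns1, the small subunit of calpain, had a log2FC of 0.46 ± 0.15 (pAdj = 0.0415). That call was lost with the replicate number as a block (0.46, pAdj = 0.0743), by limma trend (0.42, pAdj = 0.0526), with the filter lowered to 1 count (0.44, pAdj = 0.130), without WT mouse 1 (0.42) or 3 (0.44) and without Ucp1Δ/Δ mouse 1 (0.43), 3 (0.45) or 4 (0.46).

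Markers of 2 other cell types that use S100 and annexin genes moved with the genotype. Of 14 macrophage markers, 12 were tested and 10 were higher, and their sum ranged from 119 to 181 CPM in WT mice and from 1038 to 1698 CPM in Ucp1Δ/Δ mice, highest in Ucp1Δ/Δ mouse 2. The lysosomal marker Cd68 rose with a log2FC of 4.64 ± 0.34 (pAdj = 5.16e-07). Of 12 fibroblast and progenitor markers, 11 were tested and 10 were higher, and their sum ranged from 410 to 597 CPM in WT mice and from 1206 to 2340 CPM in Ucp1Δ/Δ mice, again highest in Ucp1Δ/Δ mouse 2. The collagen gene Col1a1 rose with a log2FC of 2.39 ± 0.25 (pAdj = 6.53e-06). S100a4, S100a6, S100a10, Anxa1, Anxa3 and Anxa4 were also highest in that mouse, and S100b, S100a11, Anxa2 and Anxa5 were not. The part of these markers in the differences of the S100 and annexin genes was not tested. In bulk tissue, a change in the number of cells of a type and a change in RNA per cell cannot be told apart.

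The remaining cell types gave fewer calls. The sum of the endothelial markers was 191 to 247 CPM in WT mice and 243 to 278 CPM in Ucp1Δ/Δ mice. Of the 10 brown adipocyte markers, Dio2 was higher and Cidea, Adipoq and Plin1 were lower. Of 6 smooth muscle and mural markers, 5 were tested and Acta2 was higher. Mesothelial cells, which are rich in annexins, left 7 of 8 markers under 10 counts in all mice together, Upk3b, Krt8 and Wt1 among them at 0. No lymphocyte marker had the counts to be tested, and Cd79a was at 0.

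**Figure D5:**
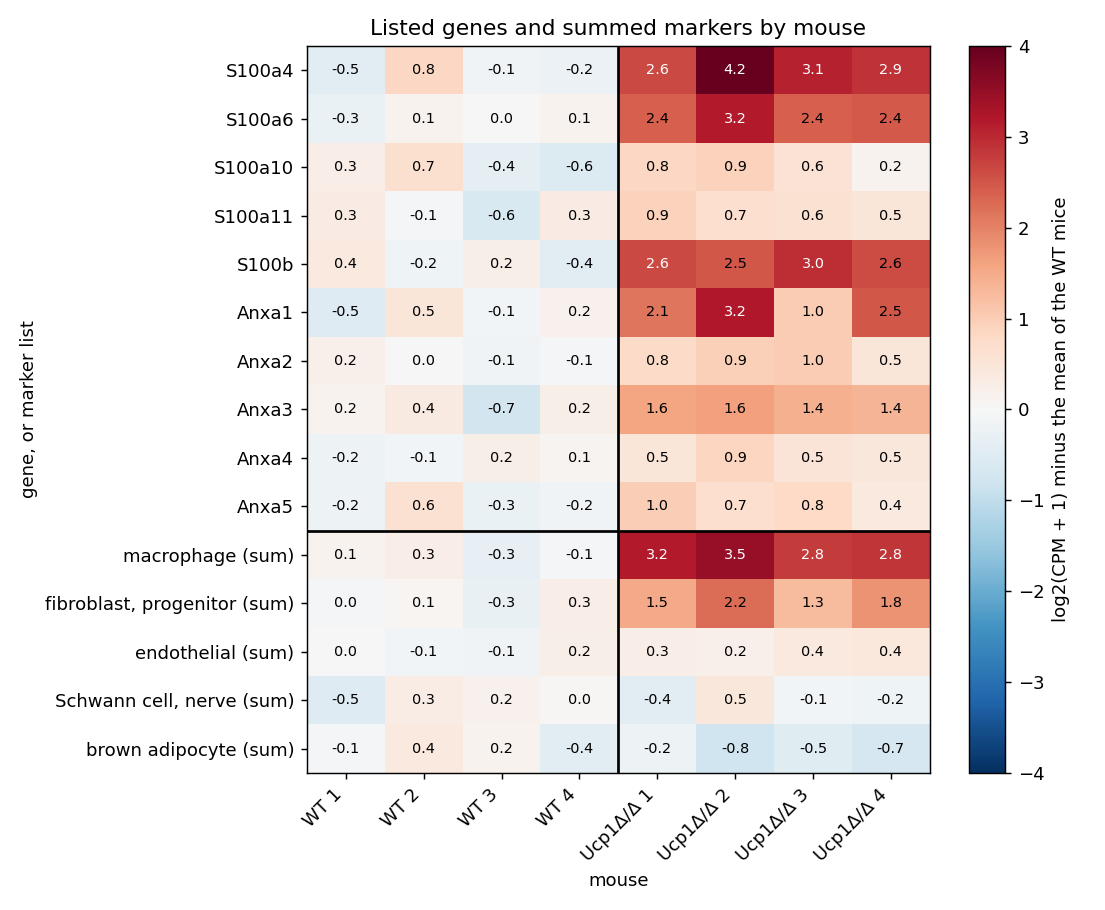
Log2(CPM + 1) minus the mean of the 4 WT mice (colour and printed value) for the 10 S100 and annexin genes and the summed markers of 5 cell types (rows) in each mouse (columns). The macrophage row runs from 2.8 to 3.5 and the fibroblast and progenitor row from 1.3 to 2.2 in Ucp1Δ/Δ mice, while the Schwann cell and nerve row stays between -0.5 and 0.5 in all mice.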

How the data were processed

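Counts, deposited by the authors without normalization, are whole reads per Ensembl gene for each mouse. The paper's methods name STAR and HTseq on mm10, whereas the submitters' processing notes name Trimmomatic, HISAT2 and DESeq2. The counting strand is not given in the sources used here. The log2 values that the authors also deposited were found to be log2(count/factor + 1), with a single factor for each library, and served 1 alternative. A table of sample attributes was not used. Symbols, given for 30934 identifiers, and positions came from GENCODE on mm10, and promoters from RefSeq.

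Analyses used R 4.3.3 with edgeR 4.0.16 (filterByExpr, TMM, quasi-likelihood test, Benjamini-Hochberg), limma 3.58.1 and DESeq2 1.42.0. SE is the log2FC over the square root of F. Log2 ratios used CPM plus 1. On simulated counts, 50.9% of genes changed by a log2 of 1 and 100% at 2 were recovered, and 5.33% of calls were false (8710 genes tested). There, 110 and 86 of the tested genes were changed by these amounts, a smaller share than the 21.0% called in the mice. The rates need not hold for these data. Same-genotype pairs of libraries differed by 4.69 to 23.2 times the counting chi-square, so none was a duplicate. The mice are separate animals by the design text.

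The 10 genes, gene lists and tests were chosen with earlier results of these data known. The rule named all 10 genes, Pnpla2, every other S100 gene and annexin, and in other lists up to 4 genes per direction with the smallest adjusted p and markers near 0. Genes outside it were named after their values were seen. Alternatives were other scalings, filters and tests, the replicate number as a block, other pseudocounts and each mouse left out.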

Additional observations from a re-analysis of the deposited data

Results flagged for a closer look

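A mouse stood far from the others of its genotype in 4 of the 94 groups examined. Each group was a gene or a log2 ratio in a genotype, over 44 genes and 3 ratios. The log2 CPM or log2 ratio was compared by the distance of that mouse from its neighbour, divided by the range of the group (gap share). Chance alone gives about 4.7 such groups. S100a6 in Ucp1Δ/Δ mouse 2 measured 8.51 log2 CPM against 7.75 to 7.79 in the others, a gap share of 0.945. Anxa4 in Ucp1Δ/Δ mouse 2 measured 4.67 log2 CPM against 4.27 to 4.32, a share of 0.859. Anxa5 in WT mouse 2 measured 8.23 log2 CPM against 7.34 to 7.46, a share of 0.871. Calu, an EF-hand protein of the endoplasmic reticulum, measured 4.69 log2 CPM in WT mouse 2 against 5.24 to 5.34, a share of 0.841.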

How the results depend on the processing

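Between 6 and 9 of the 10 genes were called higher under the alternatives, and none changed direction. S100a4, S100a6, S100b, Anxa1, Anxa2 and Anxa3 kept their call in every alternative that tested them. S100a4 and Anxa1 were not tested under the strict filter, which asked for 10 counts from every mouse. S100a10 passed with voom quality weights (log2FC 0.69) and with the replicate block (0.62, 9 of 10 genes called), and Anxa4 when scaled by total counts only (0.74) and under the strict filter (0.67). With a mouse left out, log2FC ranged from 0.41 to 0.84 for S100a10, from 0.45 to 0.73 for S100a11 and from 0.57 to 0.92 for Anxa5, and the S100a10 to Anxa2 ratio difference from -0.35 to 0.028. The cause was not tested.

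Small values of genes that were not called changed sign. Scaled by total counts only, log2FC was 0.053 for S100a16, 0.028 for Anxa7 and 0.10 for Pef1, and with voom 0.030, 0.064 and 0.060. Pef1 was 0.035 under the strict filter. Sugt1 was -0.0027 with DESeq2 size factors, -0.0075 under the loose filter of 1 count in any library, -0.015 by limma trend and -0.022 by the DESeq2 test. With a mouse left out, the log2FC ranged from -0.033 to 0.18 for S100a1, from -0.23 to 0.20 for S100a16, from -0.28 to 0.045 for Anxa7, from -0.047 to 0.099 for Sugt1, from -0.17 to 0.066 for Pef1 and from -0.022 to 0.20 for Capn2.

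Total counts only moved the median of all genes from -0.01 to 0.13 and the calls from 1191 higher and 681 lower to 1478 and 404. The strict filter left 1195 calls of either direction, against 1872. Same-numbered mice did not pair (correlations of -0.09, -0.20, 0.30 and 0.24), and the block gave 1719 calls. Genes with few counts, S100a8, S100a9 and Anxa8 among them, were removed by the default filter. With the loose filter or DESeq2, 2 of the other annexins were called higher in place of 1, and 6 of the binding partners and receptors in place of 4.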
